A study of Mus musculus with 6 samples.

Results

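The genes that coat and shape the fat droplets of brown adipose tissue were followed in mice whose brown adipocytes had lost seipin. They were the 5 perilipins Plin1 to Plin5, Cidea and Cidec, Fitm1 and Fitm2, and Hilpda, taken by symbol. All 10 were found among the 12966 genes of the deposited expression table. RNA came from the brown adipose tissue of C57BL/6J males aged 10 weeks, in 2 groups of 3 libraries. BKO mice were Bscl2f/f with Ucp1Cre, and Ctrl mice were Bscl2f/f with no Cre named, so both groups carried the floxed Bscl2 alleles. The Ucp1 promoter drives Cre in Ucp1-expressing adipocytes, and the other cells of the tissue keep Bscl2. An effect of the Cre transgene itself cannot be told apart from the loss of Bscl2. Whether every library is a different animal is not said in the labels, so p-values reflect the spread among these libraries alone, which may be technical. Values are FPKM, the number of fragments scaled for transcript length and library size, and the number of reads behind them is unknown.

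Fat droplets form in the membrane of the endoplasmic reticulum, where seipin, the product of Bscl2, sits at the sites where triacylglycerol gathers and the droplet stays attached as it grows. The FITM proteins of the same membrane assist the budding of droplets. Perilipins then cover the surface and control the access of lipases, while the CIDE proteins sit where droplets touch and pass lipid from small droplets to larger ones. Brown adipocytes hold many small droplets that supply fatty acids for heat production.

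Of the 9 members with a mean of at least 1 FPKM, which were tested, Plin2 rose in BKO, none fell, and 8 did not pass the test (limma, Benjamini-Hochberg adjusted p below 0.05). Over all 11397 tested genes the same test called 0.167%, with 0.158% called higher. With the unadjusted p held below 0.05, 2 members were higher and 1 lower, against 6.63% and 3.52% of all tested genes, and no other tool was run. The BKO libraries lay wholly above the Ctrl libraries for Plin2, Plin3 and Plin5, against 9.06% of all tested genes. They lay wholly below for Cidea, against 6.82% of all tested genes. The median log2 change of the 9 members was -0.01, and that of all tested genes was 0.01. Fitm1 was listed but too low to be tested.

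**Figure D1:**
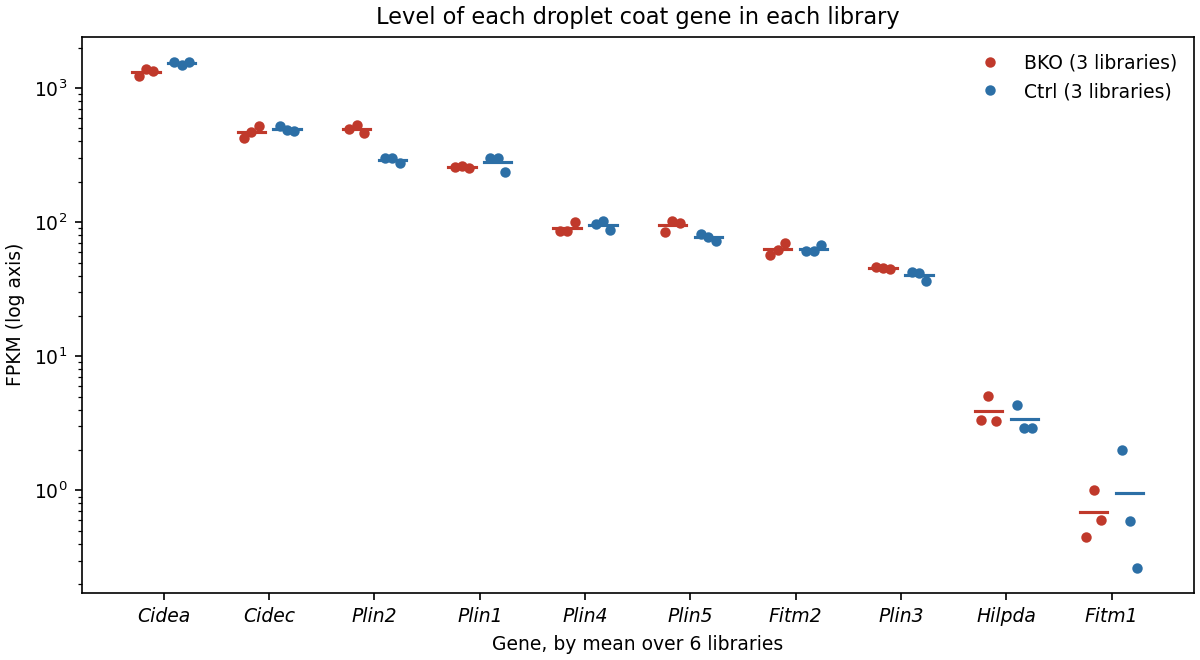
Level of each of the 10 genes in FPKM on a log axis, with 1 point per library and a line at the mean of each group (BKO in red, Ctrl in blue). The levels span from Cidea, at 1239 FPKM or more in every library, to Fitm1, near 1 FPKM, and Plin2 is the gene whose groups stand widest apart.

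The libraries were first checked against their labels. Bscl2 had 16.5, 16.9 and 18.9 FPKM in the BKO libraries, against 115.6, 104.1 and 106.5 FPKM in the Ctrl libraries. Its BKO mean was 16.0% of its Ctrl mean (limma with Benjamini-Hochberg adjusted p = 3.95e-05), and an exact permutation test, two-sided, gave p = 0.1, its minimum for groups of 3. Markers of brown adipocytes were present in every library, with Ucp1, the uncoupling protein of heat production, between 2943 and 2979 FPKM in BKO and between 2484 and 3498 FPKM in Ctrl. Cox8b, the most abundant of these markers, had 3413, 3619 and 3294 FPKM in BKO, against 3010, 3021 and 3102 FPKM in Ctrl, without overlap. Of 17 tested brown adipocyte markers 0 passed the test by limma in either direction. At an unadjusted p below 0.05, 2 were higher and 4 lower, against 6.63% and 3.52% of all tested genes. The member Cidea was among those lower. BKO libraries lay wholly above Ctrl libraries for 3 of the 17 and wholly below for 3, against 9.06% and 6.82% of all tested genes. Markers of skeletal muscle varied widely between libraries, as set out beside Fitm1. The sum of FPKM was 2808874 in BKO-3, of which 1 gene made up 861875, and lay between 1119228 and 1617963 in the other 5 libraries. The median ratio of a library's genes to their geometric mean over libraries was 1.01 in BKO-3. It ranged from 0.976 in Ctrl-3 to 1.03 in Ctrl-1. Genes with a value between 0 and 0.486 FPKM in BKO-3 are not in the table, although 341 to 632 such values are present in each other library. Low genes that are lower in BKO can thus be missing. Shares over all tested genes may therefore lean toward higher values in BKO, which was not tested.

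The clearest change was in Plin2, the perilipin found on droplets of most cell types and the main coat protein of cells that are not fat cells. Plin2 had 494, 528 and 466 FPKM in the BKO libraries, against 299, 300.1 and 276 FPKM in the Ctrl libraries. The lowest BKO library thus stood well above the highest Ctrl library. The means were 496 ± 30.9 FPKM in BKO and 292 ± 13.9 FPKM in Ctrl (SD, n = 3 each), a ratio of 1.70. The log2 change on the scale of FPKM + 1 was 0.76 (SE 0.08, 95% interval 0.58 to 0.95, limma with Benjamini-Hochberg adjusted p = 0.0251). Plin2 placed between rank 137 and 154 of all listed genes by level in BKO, and between rank 210 and 228 in Ctrl. In RefSeq Plin2 overlaps the transcribed pseudogene Gm12551, whose reads may not be separable from its own. The size of the change moved little when any 1 library was left out, from 0.72 to 0.81, but the call was lost in most of these smaller fits. The adjusted p was 0.153 without BKO-1, 0.0562 without BKO-2, 0.0233 without BKO-3, 0.0522 without Ctrl-1, 0.133 without Ctrl-2 and 0.0911 without Ctrl-3.

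Macrophages also make Plin2, so their markers are set beside it. Of 24 listed macrophage markers 20 were tested, of which 5 rose (Lyz2, Mmp12, Gpnmb, Tyrobp and Ms4a7) and 15 did not pass. Over all tested genes 0.158% were called higher. All 20 had a positive log2 change, against 51.6% of all tested genes, and their median was 0.92. With the unadjusted p of limma held below 0.05, 17 were higher and 0 lower, against 6.63% and 3.52% of all tested genes. BKO libraries lay wholly above Ctrl libraries for 15 and wholly below for 0, against 9.06% and 6.82%. Mmp12, Gpnmb and Ms4a7 averaged under 1 FPKM in Ctrl and reached the filter only through BKO, so these counts are partly set by the filter. With every listed gene tested, 3 of the 24 rose. Cd163, a scavenger receptor of resident macrophages named after its values were seen, was too low to be tested, with 0.329, 0.507 and 0.568 FPKM in the BKO libraries, against 1.23, 0.780 and 1.10 FPKM in the Ctrl libraries. Its BKO values lay below its Ctrl values, the opposite order to Lyz2, and no other listed macrophage marker lay wholly below. Trem2, Itgam and Itgax, also too low to be tested, lay wholly above. Genes with a value between 0 and 0.486 FPKM in BKO-3 are not listed, so low markers that are lower in BKO can be missing. The direction of listed markers at this level is thus partly set by the listing. The summed level of all 24 was 222 to 293 FPKM in BKO and 80.1 to 135 FPKM in Ctrl, and none of them was listed at 0 in any library. Lyz2, the lysozyme of macrophages, had 96.3, 78.0 and 78.3 FPKM in the BKO libraries, against 30.9, 20.4 and 20.0 FPKM in the Ctrl libraries. The number of macrophage markers that rose was 1 when BKO-1, BKO-2, Ctrl-2 or Ctrl-3 was left out. It was 6 without BKO-3 or without Ctrl-1, 7 with replicate number as a block and 9 with library weights. With a pseudocount of 0.1 it was 4, and with quantile normalization or muscle markers as a covariate 3. With a mean of at least 5 FPKM, 1 of the 10 markers then tested rose. BKO-1 had the highest marker sum and BKO-2 the highest Plin2. The difference between the group means of Plin2 was 205 FPKM. The part of macrophages in the level of Plin2 was not tested, and in whole tissue more cells of a type cannot be told apart from more RNA per cell.

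**Figure D2:**
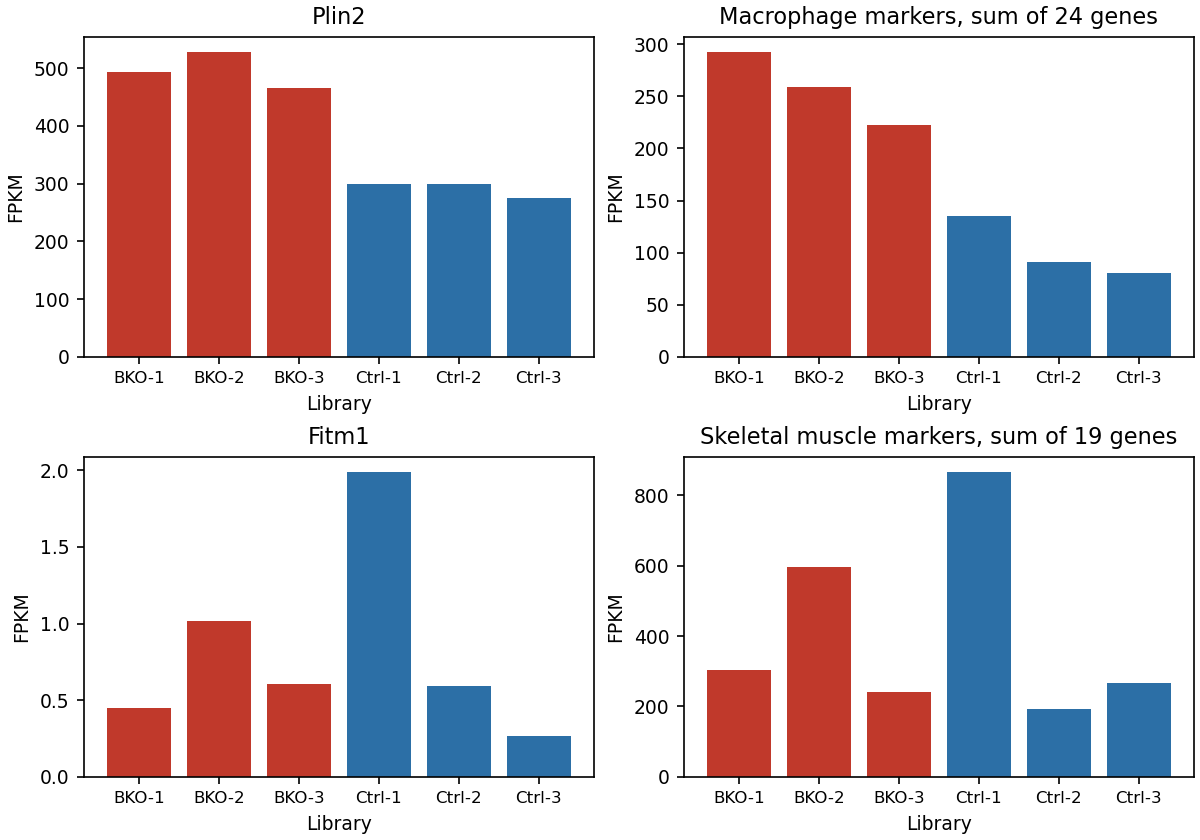
FPKM per library of Plin2, of the summed 24 macrophage markers, of Fitm1 and of the summed 19 skeletal muscle markers (bars from 0, BKO in red, Ctrl in blue). Plin2 and the macrophage sum are higher in every BKO library than in any Ctrl library, while Fitm1 and the muscle sum are highest in Ctrl-1 and next highest in BKO-2.

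The promoters of Plin2 and Plin5 are shown because these were the 2 members with the largest positive log2 changes. The sequences are from RefSeq (GRCm38.p6), cover 250 bases before and 50 after an annotated start, and are used here only as sequence, since the deposited values come from the earlier build NCBIM37. Windows were used for 9 members, 12 windows in all. Cidea is named without a sequence and was left out of the search for letters below. Capitals mark AGGTCA or its reverse complement TGACCT, the core letters bound by many nuclear receptors, PPARs among them. The Plin2 window lies at chr4:86670010-86670309 on the minus strand. The Plin5 window, the upstream of its 2, lies at chr17:56117499-56117798 on the minus strand.
Plin2: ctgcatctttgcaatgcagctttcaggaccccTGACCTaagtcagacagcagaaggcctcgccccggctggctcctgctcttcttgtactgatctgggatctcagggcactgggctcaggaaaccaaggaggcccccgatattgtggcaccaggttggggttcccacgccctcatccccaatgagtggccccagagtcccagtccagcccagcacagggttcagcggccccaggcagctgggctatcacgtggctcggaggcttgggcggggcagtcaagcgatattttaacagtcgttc
Plin5: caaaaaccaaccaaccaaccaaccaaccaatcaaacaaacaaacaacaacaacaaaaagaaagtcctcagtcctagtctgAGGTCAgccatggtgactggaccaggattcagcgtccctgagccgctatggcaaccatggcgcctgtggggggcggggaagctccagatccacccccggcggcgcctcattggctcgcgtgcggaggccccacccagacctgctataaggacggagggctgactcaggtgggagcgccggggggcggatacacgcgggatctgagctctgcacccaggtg

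The AGGTCA letters were found, on either strand, in 3 of the 12 windows. These were the single Plin2 window and both Plin5 windows, each with 1 match, so 2 of the 9 members held it. Of 32851 promoter windows of the same length, 16.3% held it. The letters ACGTG, the core of the motif bound by hypoxia-inducible factors, were in the Plin2 window and in 1 of the 2 Hilpda windows, against 19.6% of all windows. In Plin2 they lie in a palindrome that reads as a match on both strands. The TATA letters TATAAA were in none of the 12 windows, against 13.6% of all windows. The letters CCAAT were in the Plin2, Plin3 and Plin4 windows and in 1 of the 2 Plin5 windows, against 37.4% of all windows. A match here describes letters in the window and not a bound site.

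Plin5 coats droplets of tissues that burn fat, where it links droplets to mitochondria. Plin5 had 83.9, 101.5 and 99.3 FPKM in the BKO libraries, against 81.4, 77.8 and 71.8 FPKM in the Ctrl libraries. The groups did not overlap, but BKO-1 and Ctrl-1 were close. The means were 94.9 ± 9.57 FPKM in BKO and 77.0 ± 4.86 FPKM in Ctrl, a ratio of 1.23 (log2 change 0.30, 95% interval 0.08 to 0.51, limma with Benjamini-Hochberg adjusted p = 0.362). This difference did not pass the test over all genes.

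Plin3 is a perilipin of the cytosol that moves onto young droplets. Plin3 had 46.1, 45.2 and 45.0 FPKM in the BKO libraries, against 42.6, 42.1 and 36.6 FPKM in the Ctrl libraries. The BKO values were nearly equal to one another, with a coefficient of variation of 1.31%, and all lay above the Ctrl values, of which Ctrl-3 was the lowest. The log2 change was 0.17 (95% interval -0.01 to 0.35, limma with Benjamini-Hochberg adjusted p = 0.512) and did not pass.

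Plin1 is the perilipin of fat cells that holds back lipolysis until it is phosphorylated. Plin1 had 257, 262 and 254 FPKM in the BKO libraries, against 302, 303 and 235 FPKM in the Ctrl libraries. The 3 BKO values were tightly grouped and fell between the lowest Ctrl library, Ctrl-3, and the other 2. The log2 change was -0.11 (95% interval -0.36 to 0.14, limma with Benjamini-Hochberg adjusted p = 0.781), an interval that holds both lower and higher values.

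Plin4, a perilipin of fat cells and muscle, had 86.0, 86.4 and 100.3 FPKM in the BKO libraries, against 96.7, 102.3 and 86.8 FPKM in the Ctrl libraries. The groups overlapped, although BKO-1 and BKO-2 lay just below the lowest Ctrl library. The log2 change was -0.07 (95% interval -0.28 to 0.15, limma with Benjamini-Hochberg adjusted p = 0.859). In RefSeq Plin4 overlaps the neighbouring gene Hdgfl2, and the sources used here do not say whether counting used the strand.

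The make-up of the perilipin family was then set out within each library, which removes any difference in library scaling. Plin2 made up 51.1%, 51.6% and 48.3% of the summed perilipin FPKM in the BKO libraries, against 36.4%, 36.4% and 39.0% in the Ctrl libraries. Plin1 made up 26.6%, 25.6% and 26.3% in the BKO libraries, against 36.8%, 36.7% and 33.3% in the Ctrl libraries. Plin2 and Plin1 were thus near parity in Ctrl, while Plin2 was the leading perilipin of every BKO library. The share of Plin4 averaged 9.24 ± 1.02% in BKO and 12.1 ± 0.334% in Ctrl, that of Plin5 9.63 ± 0.845% in BKO and 9.83 ± 0.380% in Ctrl, and that of Plin3 4.62 ± 0.181% in BKO and 5.15 ± 0.0488% in Ctrl (SD, n = 3 each). Shares sum to the whole, so a higher share of Plin2 lowers the others. The summed FPKM of the 5 perilipins was 967, 1023 and 965 in the BKO libraries, against 822, 826 and 706 in the Ctrl libraries.

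The ratio of Plin2 to Plin1 FPKM was 1.92, 2.02 and 1.83 in the BKO libraries, against 0.990, 0.989 and 1.17 in the Ctrl libraries. The mean ratio was 1.92 ± 0.0910 in BKO and 1.05 ± 0.104 in Ctrl (SD, n = 3 each), and no library of one group reached the range of the other. The ratio of Plin5 to Plin1, chosen after its values were seen, was 0.326, 0.388 and 0.391 in the BKO libraries, against 0.270, 0.256 and 0.305 in the Ctrl libraries. These ratios are given as a description, with no test.

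**Figure D3:**
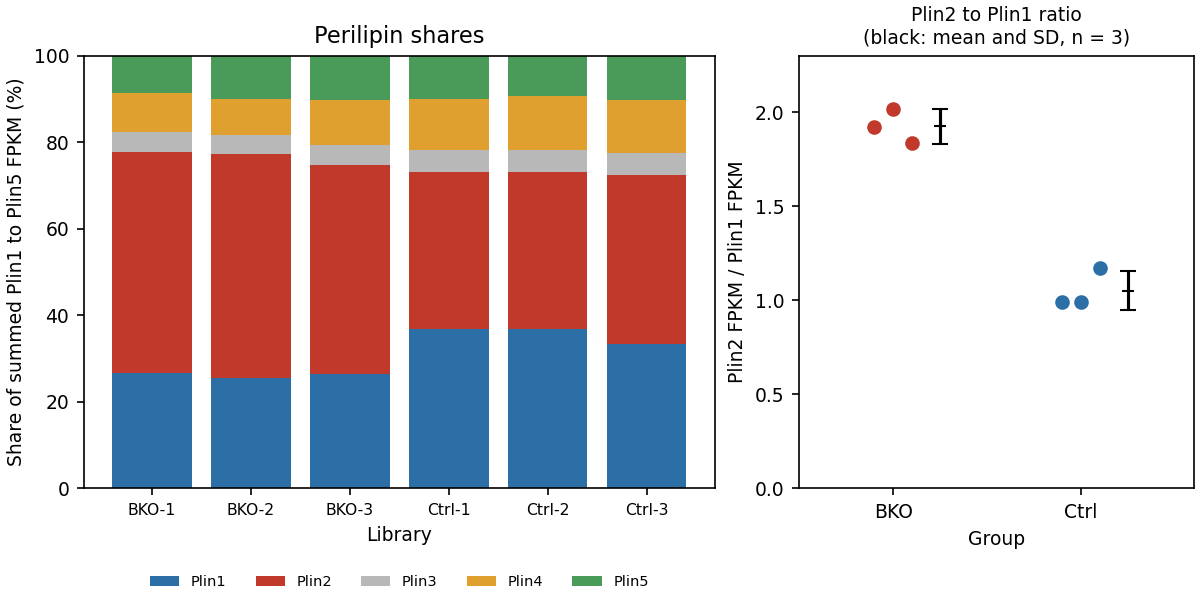
Left, the share of each perilipin in the summed FPKM of Plin1 to Plin5 in each library, in percent; right, the ratio of Plin2 to Plin1 FPKM with 1 point per library and the mean and SD in black (n = 3 each). Plin2 takes 48.3% to 51.6% in the BKO libraries and 36.4% to 39.0% in the Ctrl libraries, and the ratio averages 1.92 in BKO and 1.05 in Ctrl.

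Cidea, a droplet protein typical of brown fat that promotes the enlargement of droplets, was the most abundant member. Cidea had 1239, 1378 and 1329 FPKM in the BKO libraries, against 1564, 1478 and 1553 FPKM in the Ctrl libraries. Every BKO library lay below every Ctrl library, and the rank of Cidea among all listed genes was 45 to 54 in BKO and 42 to 44 in Ctrl. The means were 1316 ± 70.2 FPKM in BKO and 1532 ± 46.7 FPKM in Ctrl, a ratio of 0.859 (log2 change -0.22, 95% interval -0.41 to -0.03, limma with Benjamini-Hochberg adjusted p = 0.431). The difference did not pass the test over all genes. Cidea overlaps the noncoding gene B430212C06Rik in RefSeq, which has its own entry in the table.

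Cidec, which works at contacts between droplets and is strongest in white fat, had 421, 468 and 520 FPKM in the BKO libraries, against 525, 486 and 483 FPKM in the Ctrl libraries. The highest BKO library, BKO-3, reached into the Ctrl range while the other 2 lay below it. The log2 change was -0.09 (95% interval -0.31 to 0.13, limma with Benjamini-Hochberg adjusted p = 0.809). Cidec overlaps the noncoding gene Gm52871 in RefSeq, which is not listed. The ratio of Cidec to Cidea, again chosen after its values were seen, was 0.340, 0.339 and 0.391 in the BKO libraries, against 0.335, 0.329 and 0.311 in the Ctrl libraries.

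Cideb, the CIDE gene known from liver, is not a member and was singled out after its values were seen. Cideb had 2.35, 2.59 and 1.73 FPKM in the BKO libraries, against 4.16, 4.10 and 3.48 FPKM in the Ctrl libraries. Its groups did not overlap, at a level far below Cidea and Cidec, and its log2 change of -0.61 did not pass (limma with Benjamini-Hochberg adjusted p = 0.198).

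The order of the members by level was much the same in both groups, apart from the place of Plin2 and the order of Plin4 and Plin5. By group means Plin5 stood above Plin4 in BKO and below it in Ctrl. In both groups Cidea stood highest in every library, and Plin4, Plin5, Fitm2 and Plin3 lay between Plin1 and Hilpda. In all 3 Ctrl libraries Cidec came next after Cidea, with Plin1 and Plin2 close together below it. In BKO-1 and BKO-2 Plin2 stood above Cidec, and in BKO-3 it stood below. The spreads of Plin2 and Cidec overlapped in BKO, as did those of Plin4 and Plin5. In Ctrl the spreads of Plin1 and Plin2 overlapped, while those of Plin4 and Plin5 did not.

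The FITM genes differed widely in level. Fitm2, the form made in fat and many other tissues, had 57.1, 61.9 and 69.9 FPKM in the BKO libraries, against 61.4, 61.2 and 67.3 FPKM in the Ctrl libraries. The groups overlapped, with the highest values in BKO-3 and Ctrl-3. The log2 change was -0.01 (95% interval -0.22 to 0.20, limma with Benjamini-Hochberg adjusted p = 0.982). Fitm2 overlaps the noncoding gene 2310001K24Rik in RefSeq, which is not listed.

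Fitm1, the form made mainly in skeletal muscle, had 0.449, 1.01 and 0.603 FPKM in the BKO libraries, against 1.99, 0.592 and 0.266 FPKM in the Ctrl libraries. The highest and the lowest values were both in Ctrl. With every listed gene tested, the log2 change of Fitm1 was -0.12 (95% interval -0.85 to 0.60, limma with Benjamini-Hochberg adjusted p = 0.932). The 19 listed skeletal muscle markers, none of them listed at 0, summed to 302, 595 and 240 FPKM in the BKO libraries, against 866, 192 and 267 FPKM in the Ctrl libraries. Ctrl-1 and BKO-2 thus held the most muscle transcripts and the most Fitm1, and the part of muscle in the level of Fitm1 was not tested. With the mean level of these markers as a covariate, the log2 change of Plin2 was 0.77 (limma with Benjamini-Hochberg adjusted p = 0.0423).

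Hilpda, a small droplet protein that inhibits the triglyceride lipase and is induced by low oxygen and by fatty acids, had 3.32, 5.09 and 3.31 FPKM in the BKO libraries, against 4.36, 2.92 and 2.93 FPKM in the Ctrl libraries. In each group 1 library stood above the other 2, BKO-2 and Ctrl-1, which were also the 2 libraries with the most muscle transcripts. The part of muscle in the level of Hilpda was not tested. The log2 change was 0.15 (95% interval -0.27 to 0.58, limma with Benjamini-Hochberg adjusted p = 0.832), and the wide interval leaves changes in either direction possible.

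**Figure D4:**
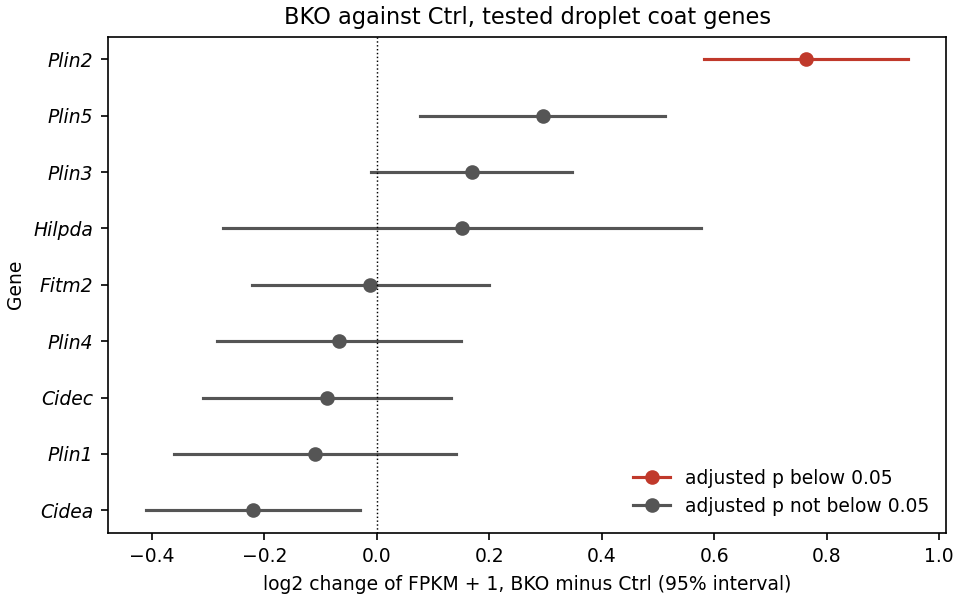
log2 change of FPKM + 1, BKO minus Ctrl, for the 9 tested members, with 95% intervals from limma; red marks an adjusted p below 0.05 over all tested genes. Plin2 stands at 0.76, apart from the others, which lie between -0.22 for Cidea and 0.30 for Plin5.

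Other genes of the droplet were read from lists written for this purpose. Of 32 tested genes of droplet formation and surface, 1 fell (Bscl2, the deleted gene), none rose and 31 did not pass, and the median log2 change was -0.06. With the unadjusted p held below 0.05, 2 genes of this list were higher and 5 lower, Bscl2 among them, against 6.63% and 3.52% of all tested genes. BKO libraries lay wholly above Ctrl libraries for 4 genes and wholly below for 6, against 9.06% and 6.82% of all tested genes. Tmem159, which encodes a partner of seipin in droplet formation and was singled out after its values were seen, had 8.73, 8.60 and 8.71 FPKM in the BKO libraries, against 8.44, 6.97 and 6.60 FPKM in the Ctrl libraries. Its BKO values lay just above the highest Ctrl value, and its log2 change of 0.22 did not pass (limma with Benjamini-Hochberg adjusted p = 0.496).

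Of 14 tested genes of droplet lipolysis, 0 passed the test by limma in either direction, with 0 higher and 2 lower at an unadjusted p below 0.05, against 6.63% and 3.52% of all tested genes. The median log2 change was -0.13, and 12 of the 14 had a negative value, against 48.4% of all tested genes. BKO libraries lay wholly below Ctrl libraries for 4 of the 14, against 6.82% of all tested genes, and wholly above for 0, against 9.06%. Pnpla2, the triglyceride lipase whose access the perilipins govern, had 1325, 1380 and 1432 FPKM in the BKO libraries, against 1615, 1515 and 1487 FPKM in the Ctrl libraries, without overlap. Fabp4, the fatty acid carrier of fat cells, had 11099, 12460 and 10640.0 FPKM in the BKO libraries, against 11345, 10909 and 10520 FPKM in the Ctrl libraries, with overlap. Neither passed.

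Plin2 is a known target of PPARs, and Hilpda of PPARs and hypoxia-inducible factors, so other targets of these factors were set beside them. Of 32 tested PPAR target genes, 0 passed by limma, and the median log2 change was -0.08. At an unadjusted p below 0.05, 2 were higher and 3 lower, against 6.63% and 3.52% of all tested genes. The 2 higher were Fabp3 (log2 change 0.30) and Cpt1a (0.45). The 3 lower were Cd36 (-0.27), Cyp4b1 (-0.57) and Acot1 (-0.91). BKO libraries lay wholly above Ctrl libraries for 3 genes and wholly below for 4, against 9.06% and 6.82% of all tested genes. Acot1, an acyl-CoA thioesterase named after its values were seen, had 3.80, 3.83 and 5.64 FPKM in the BKO libraries, against 8.87, 7.78 and 10.7 FPKM in the Ctrl libraries. Its groups did not overlap, and it did not pass the test (log2 change -0.91, limma with Benjamini-Hochberg adjusted p = 0.155). Without BKO-3 it was called lower, with an adjusted p of 0.0440 (limma), the range over its 15 alternatives being 0.0440 to 0.424. The 2 most abundant were Fabp4, above, and Ucp1. Of 21 tested hypoxia-inducible genes, 0 passed by limma, and the median log2 change was 0.05. At an unadjusted p below 0.05, 1 was higher and 1 lower, against 6.63% and 3.52% of all tested genes. BKO libraries lay wholly above Ctrl libraries for 2 and wholly below for 2, against 9.06% and 6.82%. Aldoa, a glycolytic enzyme, had 1673, 1661 and 1194 FPKM in the BKO libraries, against 1842, 1733 and 1714 FPKM in the Ctrl libraries. Ldha, lactate dehydrogenase, had 711, 734 and 593 FPKM in the BKO libraries, against 649, 637 and 676 FPKM in the Ctrl libraries. The values of Aldoa did not overlap and those of Ldha did, and BKO-3 was the lowest library for both. The part of PPARs or hypoxia-inducible factors in the levels of Plin2 and Hilpda was not tested.

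**Figure D5:**
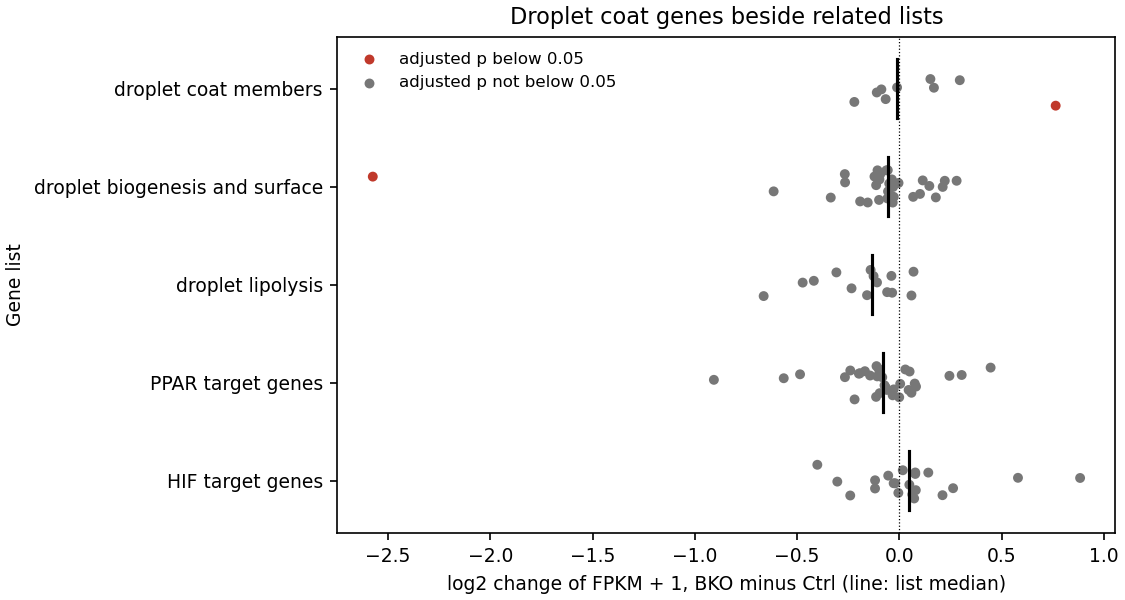
log2 change of FPKM + 1, BKO minus Ctrl, of each tested gene in 5 lists, with a line at each median and red for an adjusted p below 0.05. Plin2 at 0.76 and Bscl2 at -2.57 are the genes past the test, and the list medians lie between -0.13 and 0.05.

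The genes whose profile over the 6 libraries lay nearest to that of Plin2 were taken by the Euclidean distance between centred log2 values. They were Anxa1, Hist1h4h, Arhgdig, Srpx and Npr3, at distances of 0.191 to 0.235. Anxa1, a phospholipid-binding protein, had 10.1, 9.81 and 8.55 FPKM in the BKO libraries, against 5.98, 5.21 and 5.27 FPKM in the Ctrl libraries. Npr3, the clearance receptor of natriuretic peptides, had 11.7, 13.8 and 10.2 FPKM in the BKO libraries, against 7.53, 7.42 and 5.87 FPKM in the Ctrl libraries. Of the 5, only the histone gene Hist1h4h also passed the test (limma with Benjamini-Hochberg adjusted p = 0.0383). Hist1h4h has near-identical copies, so its level is uncertain. They were chosen by likeness to Plin2, so their difference between groups is a description.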

How the data were processed

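Gene expression was measured by RNA sequencing of Trizol-extracted RNA with TruSeq libraries, per the labels' protocols. The submitters' processing notes name CASAVA 1.8, TopHat2 2.0.12, Cufflinks 2.2.1 and the build NCBIM37, and the sources used here do not give options or annotation. The authors deposited FPKM per gene for 6 libraries, which are not counts, and low values were not multiples of a common read, so depth is unknown. Columns were assigned through the sample names in the descriptions, which call Ctrl libraries MT and BKO libraries WT, and the level of Bscl2 was used as the check.

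Values were transformed as log2(FPKM + 1), which understates changes of low genes, for the 11397 genes averaging 1 FPKM or more. All 6 libraries entered a linear model in limma (version 3.58.1, R version 4.3.3) with an intensity trend, no covariate and Benjamini-Hochberg adjustment over all tested genes at 0.05. A ratio between groups is that of the mean FPKM. The steps were tested on simulated data. Promoter sequences were matched by symbol in the RefSeq table of GRCm38.p6. Named genes were all members, Bscl2, members of each list past the test (or its 2 most abundant), and the 5 nearest profiles to a called member. The members and lists were chosen with earlier results of these data known. Alternatives were other pseudocounts, filters, scalings, variance settings, weights per library, replicate number as a block, muscle markers as a covariate, and each library left out in turn.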

Additional observations from a re-analysis of the deposited data

How the results depend on the processing

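The log2 change of Plin2 stayed between 0.72 and 0.81 in all 15 alternatives. Plin2 passed in the 9 that kept all 6 libraries and without BKO-3, and was lost in the other 5 that left out a library (adjusted p 0.00929 to 0.153 over all 15). The count of members past the test, 1 with all libraries, was 0 to 1 with 1 library left out. The fall of Bscl2 was called in all 15. No other member passed in any alternative. The sign turned for Fitm2, whose log2 change was 0.056 without BKO-1 and 0.033 without Ctrl-3 (-0.089 to 0.056 over the left-out libraries). It also turned for Hilpda, at -0.014 without BKO-2 (-0.014 to 0.301 over the left-out libraries). Over all genes, 19 were called, against 12 with no filter, 10 with a mean of at least 5 FPKM, 54 with library weights, 10 with the muscle covariate, and 6 to 44 with 1 library left out. The cause of these shifts was not tested.

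Deviations of same-numbered libraries from their group means correlated at 0.20, -0.10 and -0.10. Libraries of different numbers were not compared, so these values cannot decide whether replicate numbers pair the libraries. With the replicate block 25 genes were called. Plin2 had an adjusted p of 0.0485 and Acot1, not called without it, was lower at an adjusted p of 0.0467 (limma). The difference in log2 ratio of Plin2 to Plin1 was 0.88, and 0.84 to 0.96 with 1 library left out. With 3 libraries a group and unknown depth, small changes of low genes such as Fitm1 and Hilpda were not detectable.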
